A study of Rattus norvegicus with 12 samples.

Results

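The data described here are the 6 arrays of female rat hepatocytes, out of 12 arrays in the series. They were chosen by the sample titles, which mark the cells as female. Hepatocytes are the main cells of the liver. They came from 11 week old Sprague-Dawley rats, an outbred laboratory stock, and were plated on collagen and kept in serum-free culture. The 3 treated cultures had received dexamethasone, a synthetic glucocorticoid, at 100 nM for 6 h (the unit is spelled nm in the protocol), and the 3 vehicle cultures had received 0.01% ethanol. The labels do not say whether the 3 replicates of a group came from separate animals or from separate dishes, so the p-values rest on the spread among these 6 arrays, some or all of which may be technical. The other 6 arrays hold hepatocytes marked male by title, under the same conditions, and served here only to compare the response between the sexes. The gender field of the labels reads male for all 12 samples, against the titles. The comparison asks which RNAs female hepatocytes gain or lose within hours of glucocorticoid exposure.

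Glucocorticoids diffuse into the cell and bind the glucocorticoid receptor, a nuclear receptor held in the cytoplasm by chaperones until the hormone arrives. The receptor then enters the nucleus, binds DNA at glucocorticoid response elements and raises transcription of nearby genes. It also lowers the output of inflammatory genes driven by NF-kB and AP-1. In the liver this hormone is known for raising glucose production and the breakdown of amino acids during fasting and stress, and for restraining inflammation.

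RNA abundance was measured on 1-colour microarrays. The level of a gene below is the log2 of its processed signal minus the 75th percentile of that array, and levels of different probes cannot be set against each other. A difference is the mean level with dexamethasone minus the mean level with vehicle, given with its standard error (SE) from the fit and n = 3 arrays a group. Rose and fell are used for differences with a Benjamini-Hochberg adjusted p under 0.05 in limma, a linear model with a shared estimate of the spread, over all 26405 genes tested. Between 72.4% and 78.1% of the probes were above background on the 6 arrays, and array pairs correlated at 0.966 to 0.993.

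The female and male titles were set against genes that differ by sex. A probe for a sequence similar to Xist, the RNA that silences 1 X chromosome in female cells, lies at chrX:91523230-91523289 of the rn3 build and is shown because it bears on the titles. It is printed 5′ to 3′ as on the array.
Xist-like probe: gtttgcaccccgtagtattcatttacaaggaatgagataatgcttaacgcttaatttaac
Its level was 0.46 to 1.16 on the 6 female arrays and -6.76 to -5.30 on the 6 male arrays. Obp3, a male urinary alpha-2u globulin, was not above background on any female array, while its male levels were 2.93 to 4.26. Cyp2c12, a female-specific steroid hydroxylase, had levels of 3.79 to 4.82 in females and 0.86 to 2.77 in males. These 3 genes separated the sexes as the titles name them. Cyp2c11, a male-specific cytochrome, was higher in most male arrays but did not separate the groups, with male levels of -0.49 to 1.80 and female levels of -2.12 to -0.23.

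The arrays lay on slides of 4, each with its own scan. Vehicle replicates 1 and 2 shared a slide with male arrays, whereas vehicle replicate 3 and all 3 dexamethasone arrays shared another. Treatment is therefore partly tied to slide, and counts are also given with slide as a term in the fit, which rests on vehicle replicate 3 alone. The array of vehicle replicate 2 also held a dim patch. Within rows 238 to 301 and columns 35 to 50, out of 532 rows and 85 columns, 239 spots were more than 2 log2 units below every other female array, and no spot was so low on any of the other 5. The 992 non-control spots of the patch are 2.29% of all spots, and 602 tested genes were read there. Their median difference was 0.83 as deposited and -0.01 with the patch set to missing on that array, and 12 and 34 of them were called. Kynu, which cleaves kynurenine in tryptophan breakdown, had a difference of 2.71 as deposited and 0.44 without the patch. Tfrc, the transferrin receptor, had 2.39 and 0.23. Neither passed the test either way. Spots next to the patch were dim too and were kept. A bin that holds only the first row of the patch had a median of -1.28, and bins wholly outside it reached -0.58. What made the patch dim was not tested.

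**Figure D1:**
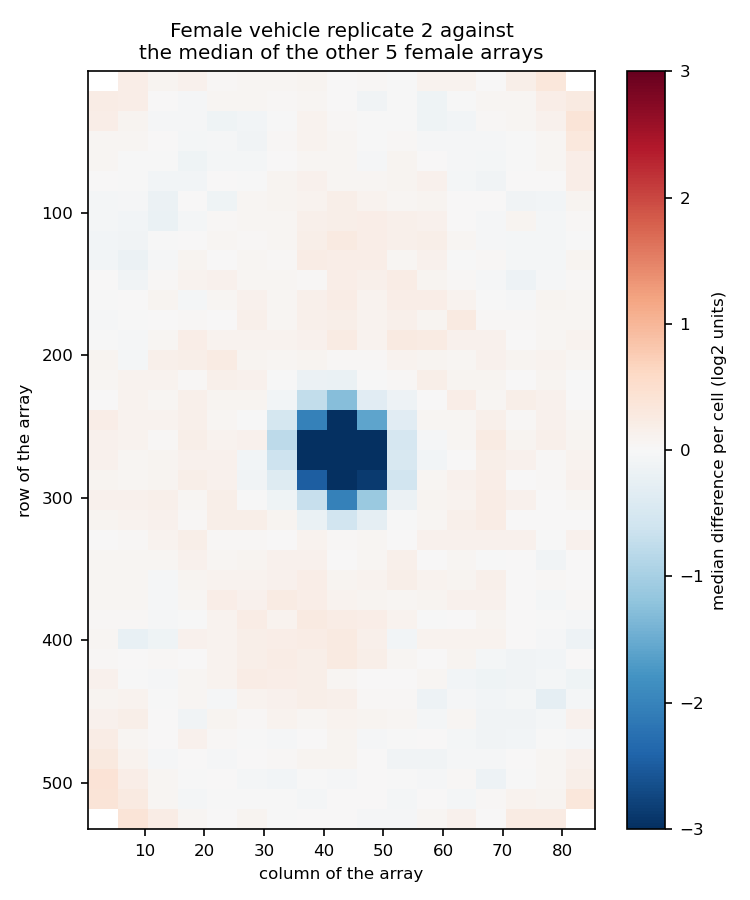
Map of the array of female vehicle replicate 2, by row and column of the array; colour gives the median, in each bin of spots, of that array's level minus the median of the other 5 female arrays (log2 units). The dark patch lies in rows 238 to 301 and columns 35 to 50. A bin that holds only its first row is at -1.28, and some bins wholly outside it are also below 0, down to -0.58.

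Of 26405 genes tested, 1692 rose and 1026 fell, so the background is 10.3% called in either direction, 6.41% rising and 3.89% falling. The rise exceeded 2-fold for 879 genes and 4-fold for 166, and the fall exceeded 2-fold for 373 and 4-fold for 49. The levels of the groups did not overlap for 8956 genes (33.9%). In the slide-term fit 924 rose (3.5%) and 390 fell (1.48%), of which 949 were also called without the block and in the same direction. With replicate number as a block 3775 of the 26405 were called (14.3%), 2042 rising and 1733 falling, so falls were more frequent in that fit than in the main one. The share of calls that rose depends on the scaling: it was 62.3% here, 54.2% after quantile normalization and 51.2% when arrays were centred on their median. Leaving out vehicle replicate 2, the array with the dim patch, gave 2847 calls, and leaving out any one of the others lowered the count by more than 1.5 times: 960 without vehicle replicate 1, 1598 without vehicle replicate 3, and 920, 666 and 941 without dexamethasone replicates 1, 2 and 3. The lists below are sets of genes named by pathway or cell type, and their counts include only members that passed the filter on dim probes. List counts are to be read against the share over all genes in the same fit, and several lists lay near that share.

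**Figure D2:**
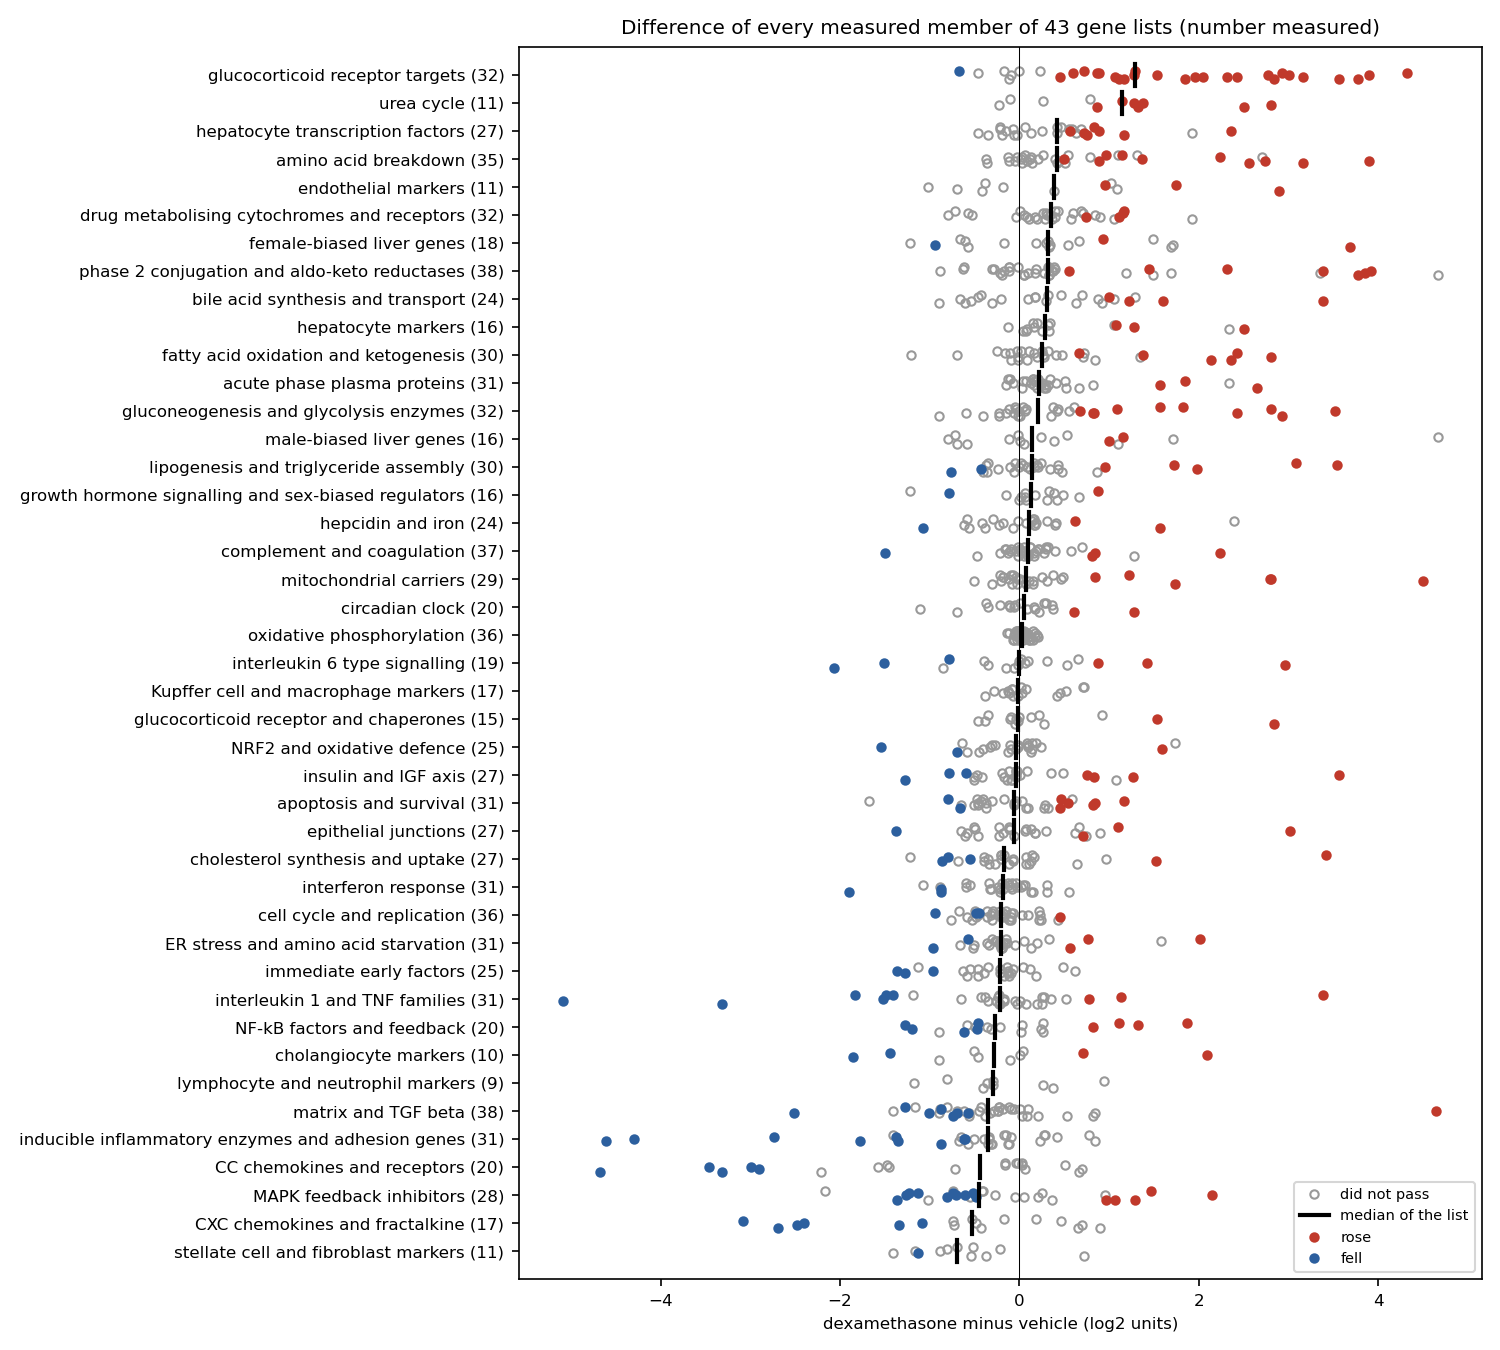
Each point is 1 measured member of 1 of 43 gene lists, placed by its difference (log2 units, dexamethasone minus vehicle, 3 arrays a group); filled red points rose, filled blue points fell, open points did not pass, and the black bar is the list's median. Glucocorticoid receptor targets have the highest median at 1.29, the point farthest to the left is Il1b at -5.09, and oxidative phosphorylation lies within -0.14 to 0.21.

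Established glucocorticoid receptor targets made up the list with the most rises. Of 32 measured members 25 rose and 1 fell, against a background of 6.41% rising and 3.89% falling, and the median difference was 1.29 against -0.02 over all genes tested. Sult1a1, a sulfotransferase for phenols and drugs, had vehicle levels of 0.45, 0.61 and 0.42 and dexamethasone levels of 4.35, 4.29 and 4.18. The groups lay far apart, and Sult1a1 rose 13.7-fold (difference 3.78 ± 0.11 SE, adjusted p = 0.000331). Fkbp5, a co-chaperone that lowers the hormone affinity of the receptor, had vehicle levels of 0.25, 0.39 and 0.10 and dexamethasone levels of 3.09, 3.17 and 3.03. It rose 7.18-fold (adjusted p = 0.000788), and its 3 probes gave differences of 2.64 to 3.06. Klf9, a zinc finger repressor, went from 0.08, 0.14 and 0.11 to 2.35, 2.46 and 2.44, a 4.95-fold rise with replicates within 0.11 log2 units of each other (adjusted p = 0.000788). Zbtb16, a zinc finger transcription factor, rose 20.0-fold, from vehicle levels of -6.71, -5.54 and -6.07 to -1.73, -1.69 and -1.95 (adjusted p = 0.00235).

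Other rises in the same list included Klf15 at 3.01, a regulator of amino acid and glucose metabolism, and Sesn1 at 2.77, a stress-induced inhibitor of mTORC1. Ddit4, another mTORC1 inhibitor, had a difference of 2.05, and Tsc22d3, which encodes the anti-inflammatory protein GILZ, had 1.96. Dusp1, a phosphatase that switches off p38 and JNK kinases, had 1.29, Per1, a clock gene, 1.28, and Sgk1, a kinase that controls ion channels, 1.17. Ccdc69, above background on 2 of 3 dexamethasone arrays, was the member that fell (-0.67, adjusted p = 0.0381), and it did not pass with the slide term (adjusted p = 0.189) or when any single array other than vehicle replicate 2 was left out (adjusted p = 0.0623 to 0.115). G6pc1, the phosphatase that releases glucose from the liver cell, is a classical target in the intact liver. Its vehicle levels were -2.74, -1.53 and -2.34 and its dexamethasone levels -2.27, -1.81 and -2.53, so the groups overlapped and the difference was -0.00 ± 0.35 SE (adjusted p = 0.999). Lcn2, a siderophore-binding protein, also did not pass (0.23). Once slide was a term, 17 members rose and 0 fell, and without dexamethasone replicate 2 the counts were 15 and 0.

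The receptor itself, its chaperones and its ligand enzymes form a list of 15 measured genes, of which 2 rose. These were Fkbp5, above, and Hsd11b1, the enzyme that regenerates active glucocorticoid from its inactive form. Hsd11b1 had vehicle levels of 4.09, 3.88 and 3.36 and dexamethasone levels of 5.34, 5.50 and 5.08, a 2.89-fold rise (adjusted p = 0.0142). The call was lost without dexamethasone replicate 1 (adjusted p = 0.0541) or replicate 2 (0.0618). Nr3c1, the receptor gene, had vehicle levels of 1.02, 0.91 and 0.82 and dexamethasone levels of 1.29, 1.07 and 1.20. The levels did not overlap, but its difference of 0.27 ± 0.11 SE did not pass (adjusted p = 0.183).

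**Figure D3:**
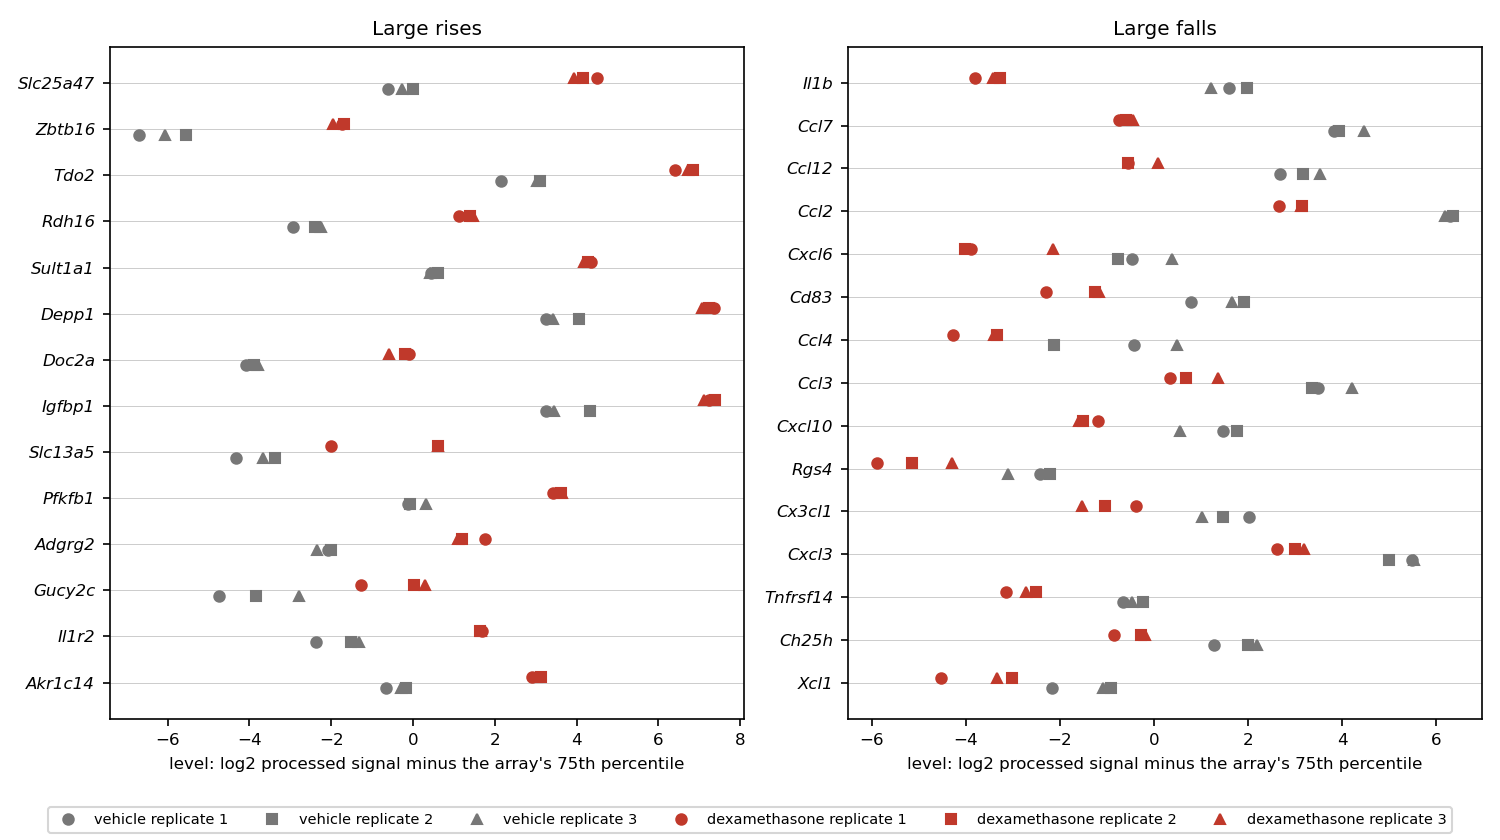
Level of the largest rises and falls named here, on each of the 6 female arrays (log2 processed signal minus the array's 75th percentile); grey symbols are the vehicle and red symbols the dexamethasone replicates, with the symbol shape giving the replicate number. Vehicle and dexamethasone points of Slc25a47, Sult1a1, Il1b and Ccl7 do not overlap and lie more than 3 log2 units apart.

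Genes of glucose handling rose in part. Of 32 measured enzymes and regulators 10 rose and 0 fell, and the median difference was 0.21. Pfkfb1, the bifunctional enzyme that tunes glycolysis against gluconeogenesis, had vehicle levels of -0.12, -0.08 and 0.33 and dexamethasone levels of 3.43, 3.62 and 3.64. It rose 11.5-fold (3.52 ± 0.15 SE, adjusted p = 0.000855). Pck1, the enzyme that commits carbon to gluconeogenesis, rose with a difference of 2.93, and Pdk4, which blocks pyruvate oxidation, with 2.43. Slc37a4, the glucose 6-phosphate carrier of the endoplasmic reticulum, went from 3.42, 3.61 and 3.33 to 5.05, 5.03 and 4.99, a 2.96-fold rise (adjusted p = 0.0024). Ppargc1a, a coactivator of gluconeogenic genes, was not well above background on any vehicle array and was above it on all 3 dexamethasone arrays. It rose at least 2.85-fold (adjusted p = 0.0325), where a bound takes the dim group at the higher of its own signal and the faintest signal still called above background on each array. After a slide term was added, 4 members rose. Without vehicle replicate 1 or dexamethasone replicates 1, 2 or 3 the list had 5, 5, 4 and 5 rises.

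Amino acid breakdown showed 10 rises and 0 falls among 35 measured genes, with a median of 0.42. Tdo2, the enzyme that opens tryptophan breakdown, had vehicle levels of 2.15, 3.1 and 3.04 and dexamethasone levels of 6.40, 6.84 and 6.73, a 14.9-fold rise (adjusted p = 0.00269). Tat, tyrosine aminotransferase, went from 0.90, 1.13 and 1.52 to 4.27, 4.37 and 4.40 (8.95-fold, adjusted p = 0.00143). In both of these the lowest treated array was above the highest vehicle array by more than 2 log2 units. Gnmt, which disposes of excess methionine, had a difference of 2.74, Cdo1, which degrades cysteine, 2.24, and Cbs, which moves sulfur from methionine to cysteine, 1.15. Fitted with the slide term, 4 rose, and with any single array other than vehicle replicate 2 left out 5 or 6 rose.

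The urea cycle, which disposes of the nitrogen set free by amino acid breakdown, had 7 rises and 0 falls among 11 measured genes and a median of 1.15. Slc25a15, the ornithine carrier of the inner mitochondrial membrane, had vehicle levels of 1.23, 1.72 and 1.18 and dexamethasone levels of 4.14, 4.58 and 3.83 (7.0-fold, adjusted p = 0.0035). Nags makes N-acetylglutamate, the activator of the first step, and went from 2.07, 2.42 and 2.26 to 3.46, 3.76 and 3.48 (2.49-fold, adjusted p = 0.0064). Ass1, which joins citrulline and aspartate, went from 4.49, 4.78 and 4.43 to 5.87, 6.01 and 5.65 (2.43-fold, adjusted p = 0.008). Cps1, the first enzyme of the cycle, had vehicle levels of -2.17, -0.69 and -0.81 and dexamethasone levels of 0.31, 1.77 and 1.75. Replicate 1 was the lowest of both groups, and the rise of 2.50 ± 0.56 SE (adjusted p = 0.0444) was lost with the slide term (0.244) and when any single array other than dexamethasone replicate 1 was left out (0.0535 to 0.142). Arg1, the last enzyme, had a difference of 0.79 (adjusted p = 0.0802), and Otc, which makes citrulline, -0.23 (0.702). In the slide-term fit 5 members rose, and with 1 array left out 5 to 7.

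Mitochondrial carriers, which move metabolites across the inner membrane, had 6 rises and 0 falls among 29 measured genes around a median of 0.07, and all 6 rises passed with the slide term. Slc25a47, a liver-enriched carrier, had vehicle levels of -0.60, -0.01 and -0.27 and dexamethasone levels of 4.51, 4.17 and 3.94. It rose 22.7-fold (4.50 ± 0.21 SE, adjusted p = 0.000855), the largest rise among genes with a symbol that passed and were above background on all 6 arrays. Slc25a29, a carrier of basic amino acids, went from -0.10, 0.24 and -0.16 to 2.83, 2.96 and 2.59 (6.96-fold, adjusted p = 0.0016). Slc25a33, a pyrimidine nucleotide carrier, went from -0.70, -0.52 and -0.42 to 1.12, 1.22 and 1.20 (3.31-fold, adjusted p = 0.00198). By contrast none of 36 measured subunits of oxidative phosphorylation passed, with or without the slide term. Their differences lay between -0.14 and 0.21, the largest being Ndufa2, a complex I subunit (0.21 ± 0.09 SE, adjusted p = 0.224).

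Fatty acid oxidation and ketone synthesis had 6 rises and 0 falls among 30 measured genes, with a median of 0.25. Ppara, the nuclear receptor that drives fatty acid oxidation, had vehicle levels of -3.34, -2.90 and -3.50 and dexamethasone levels of -0.72, -0.70 and -1.23 (5.14-fold, adjusted p = 0.00448). Cpt1a, which admits fatty acids to the mitochondrion, went from -0.45, -0.29 and -0.42 to 0.92, 1.06 and 0.99 (2.60-fold, adjusted p = 0.00257). Fgf21, a fasting hormone made by the liver, had vehicle levels of -0.44, 0.41 and 0.68 and dexamethasone levels of -1.39, -0.76 and -0.84. Its difference of -1.21 did not pass (adjusted p = 0.0738), although it did with replicate number as a block (0.0242). The list had 3 rises without dexamethasone replicate 1 or without replicate 2, and 3 with the slide term.

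Lipid storage genes moved both ways, with 5 rises and 2 falls among 30 measured and a median of 0.14. Lpin1, a phosphatidate phosphatase and coactivator, had vehicle levels of -0.39, -0.16 and -0.47 and dexamethasone levels of 2.78, 2.91 and 2.56 (8.50-fold, adjusted p = 0.000855). Plin5 and Pnpla2 code for a lipid droplet coat protein and the lipase that starts triglyceride breakdown, and they rose 3.95-fold and 3.30-fold (adjusted p = 0.00292 and 0.00488). Slc13a5, the plasma membrane citrate carrier, had vehicle levels of -4.34, -3.37 and -3.68 and dexamethasone levels of -2.0, 0.62 and 0.62, so dexamethasone replicate 1 stood apart from the other 2. Its rise of 3.54 ± 0.75 SE (adjusted p = 0.0397) was lost with the slide term (0.186) and when any single array other than dexamethasone replicate 1 was left out (0.0602 to 0.123). The 2 falls, Fasn, fatty acid synthase (-0.43, adjusted p = 0.043), and Lpin2, a paralog of Lpin1 (-0.76, adjusted p = 0.0351), were small. Both were lost with the slide term (0.214 and 0.152) and when any 1 of the 6 arrays was left out, and 0 falls were left in the list in each case. The slide term left 3 rises.

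Cholesterol genes had 2 rises and 3 falls among 27 measured, with a median of -0.17, while 6.41% of all genes tested rose and 3.89% fell. Hmgcs1, near the start of the pathway, fell from 3.88, 3.78 and 4.04 to 3.04, 2.98 and 3.1, a difference of -0.86 ± 0.11 SE (adjusted p = 0.00987, and 0.0538 without dexamethasone replicate 2). Msmo1, a sterol oxidase, had a difference of -0.55 (adjusted p = 0.0313), lost with the slide term (0.0922) and when any 1 of the 6 arrays was left out (0.0617 to 0.102). Abcg5, a subunit of the sterol efflux transporter of the bile canaliculus, was not above background on any vehicle array and rose at least 4.70-fold (adjusted p = 0.0397), a call lost with the slide term (0.158) and without vehicle replicates 1 or 3 or dexamethasone replicates 2 or 3 (0.102 to 0.119). The list had 1 rise and 1 fall with the slide term, 4 rises and 5 falls with replicate number as a block, and with any single array other than vehicle replicate 2 left out 2 or 3 calls.

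Bile acid synthesis and transport had 4 rises and 0 falls among 24 measured genes, with a median of 0.31, and 8 rises and 2 falls with replicate number as a block. Akr1c14, a hydroxysteroid dehydrogenase of the aldo-keto reductase family, had vehicle levels of -0.65, -0.16 and -0.30 and dexamethasone levels of 2.90, 3.13 and 3.01 (10.4-fold, adjusted p = 0.000855). Cyp27a1, a sterol hydroxylase, went from 3.63, 3.71 and 3.24 to 5.32, 5.24 and 4.83 (3.03-fold, adjusted p = 0.00842). Abcb11, the bile salt export pump, had a difference of 1.22. Slco1a1, an uptake carrier for organic anions, had 1.00 (adjusted p = 0.0249), which was lost with the slide term (0.127) and when any single array other than vehicle replicate 2 was left out (0.051 to 0.0899). The list had 2 rises and 1 fall with the slide term, and 2 rises with any single array other than vehicle replicate 2 left out.

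Among drug metabolising cytochromes and their receptors 4 of 32 measured rose and 0 fell, with a median of 0.35. Nr1i2, the xenobiotic receptor PXR, had vehicle levels of 1.54, 1.76 and 2.01 and dexamethasone levels of 2.80, 2.87 and 3.17, a 2.26-fold rise (adjusted p = 0.0136) lost with the slide term (0.0758) and without dexamethasone replicate 2 (0.0571). Por, the reductase that feeds electrons to the cytochromes, rose 2.16-fold (adjusted p = 0.0122), a call lost with the slide term (0.0593) and without vehicle replicate 1 (0.051). Without dexamethasone replicate 2 the list had 2 rises, with the slide term 1, and with replicate number as a block 7 rises and 3 falls. Phase 2 conjugating enzymes and aldo-keto reductases had 7 rises and 0 falls among 38 measured, 5 rises and 1 fall with the slide term, and 12 rises and 1 fall with replicate number as a block. Rdh16, a retinol dehydrogenase, went from -2.94, -2.39 and -2.26 to 1.12, 1.39 and 1.47 (14.5-fold, adjusted p = 0.00129). Many of these enzymes belong to families of near-identical members, and a probe may read more than 1 of them. Leaving out vehicle replicates 1 or 2 or dexamethasone replicates 1, 2 or 3 lowered the phase 2 count to 3 or 4.

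Transcription factors of the hepatocyte had 7 rises and 0 falls among 27 measured, with a median of 0.42. Besides Ppara and Nr1i2 these were Cebpd, Cebpb, Cebpa, Rxra and Prox1. Cebpd, a C/EBP factor of the acute phase, went from 6.26, 6.31 and 6.33 to 7.26, 7.21 and 7.11 (1.85-fold, adjusted p = 0.00573). Rxra, the shared partner of many nuclear receptors, went from -1.79, -1.66 and -1.69 to -0.88, -0.86 and -0.90 (1.78-fold, adjusted p = 0.00664). Hnf4a, a factor that maintains the hepatocyte state, had a difference of 0.25 and did not pass. Once slide was a term, 3 rose, and without dexamethasone replicates 1, 2 or 3 the counts were 4, 3 and 4. Of 31 measured acute phase plasma proteins 3 rose and 0 fell, with a median of 0.22, and the same counts held with the slide term, while replicate number as a block gave 6 rises. A2m, a protease inhibitor of the rat acute phase, went from 5.06, 5.25 and 4.96 to 7.64, 7.73 and 7.85 (6.27-fold, adjusted p = 0.000855). Hamp, the iron hormone hepcidin, rose 2.97-fold and Mt1, metallothionein, 3.61-fold (adjusted p = 0.0027 for each). Alb, albumin, had a difference of 0.07 (adjusted p = 0.712). Ttr, transthyretin, had vehicle levels of 3.91, 0.07 and 3.53, the low one lying in the dim patch, and a difference of 2.34 (adjusted p = 0.204), or 1.12 with the patch left out (adjusted p = 0.0242).

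Of the 15 largest falls among genes with a symbol above background on all 6 arrays, 10 encode chemokines, which draw white blood cells. Il1b, the cytokine interleukin 1 beta, had vehicle levels of 1.59, 1.98 and 1.21 and dexamethasone levels of -3.80, -3.27 and -3.42. The groups lay more than 4 log2 units apart, and Il1b fell 34.1-fold (-5.09 ± 0.24 SE, adjusted p = 0.000855), with its other probe at -5.32. Among CC chemokines and their receptors, which draw monocytes and lymphocytes, 0 of 20 measured rose and 5 fell, with a median of -0.44. All 5 falls also passed with the slide term, and 4 or 5 fell with 1 array left out. Replicate number as a block gave 2 rises and 8 falls. Ccl7 went from 3.83, 3.93 and 4.47 to -0.74, -0.60 and -0.44, a 25.5-fold fall (adjusted p = 0.000855). Ccl2, the main monocyte attractant of this group, went from 6.29, 6.36 and 6.19 to 2.65, 3.14 and 3.13, a 9.92-fold fall (adjusted p = 0.000997). Ccl12 went from 2.69, 3.16 and 3.54 to -0.54, -0.55 and 0.09, an 11.0-fold fall (adjusted p = 0.00312). Ccl3 fell 7.44-fold (adjusted p = 0.00811). Ccl4 had vehicle levels of -0.42, -2.12 and 0.50, the lowest in the dim patch, and dexamethasone levels of -4.27, -3.34 and -3.39. Its difference was -2.99 (adjusted p = 0.0456), or -3.71 with the patch left out (0.00861). It was lost with replicate number as a block (0.0594) and when any single array other than vehicle replicate 2 was left out (0.0839 to 0.134). Since this is RNA of whole cultures, fewer cells of a type and less RNA per cell cannot be told apart.

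CXC chemokines and fractalkine had 0 rises and 6 falls among 17 measured, with a median of -0.53. Cxcl3, a neutrophil attractant, went from 5.48, 5.00 and 5.52 to 2.62, 3.00 and 3.18, a 5.27-fold fall (adjusted p = 0.00381). Cxcl10, which draws T cells and is known to be raised by interferon, went from 1.46, 1.76 and 0.56 to -1.19, -1.51 and -1.59, a 6.44-fold fall (adjusted p = 0.0085). Cxcl2 fell 2.53-fold (adjusted p = 0.00467). Cxcl1, from the same neutrophil-attracting group, had vehicle levels of 5.14, 5.23 and 5.26 and dexamethasone levels of 4.73, 4.59 and 5.01. The groups did not overlap, yet its difference of -0.43 ± 0.14 SE did not pass (adjusted p = 0.105). Cxcl6 and Cx3cl1, fractalkine, had differences of -3.08 and -2.48 (adjusted p = 0.0279 and 0.0147), both lost with the slide term (0.0684 and 0.0904). Cxcl6 was lost without vehicle replicates 1 or 3 or dexamethasone replicates 1 or 2 (0.0722 to 0.0949), and Cx3cl1 without dexamethasone replicate 2 (0.065). The list had 3 falls with the slide term and 3 without dexamethasone replicate 2.

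Interleukin 1 and TNF family genes had 3 rises and 6 falls among 31 measured around a median of -0.21. The ligands Il1b, Il1a and Tnf fell, Il1a and Tnf with 2 of 3 dexamethasone arrays above background. Il1a went from -2.26, -1.94 and -2.14 to -5.95, -5.04 and -5.28, a 9.93-fold fall (adjusted p = 0.00271). Il1r2, the decoy receptor that binds interleukin 1 without signalling, had vehicle levels of -2.37, -1.51 and -1.31 and dexamethasone levels of 1.69, 1.63 and 1.67, a 10.5-fold rise (adjusted p = 0.00326). Il1r1, the signalling receptor, went from -3.01, -3.05 and -3.1 to -1.98, -1.75 and -2.04, a 2.19-fold rise (adjusted p = 0.00528). Nlrp3, the inflammasome sensor needed to mature interleukin 1 beta, had a difference of -1.83. Only 1 dexamethasone array was above background for Nlrp3. The list had 2 rises and 4 falls with the slide term, and 2 rises and 3 falls without dexamethasone replicate 1 or replicate 3.

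Interleukin 6 type signalling likewise had 3 rises and 3 falls among 19 measured, with a median of -0.00. Il6, the cytokine, went from -4.65, -4.50 and -4.74 to -6.95, -6.62 and -6.53, a 4.20-fold fall (adjusted p = 0.0024) with 2 of 3 dexamethasone arrays above background. Il6st, the shared signalling receptor gp130, rose 2.67-fold (adjusted p = 0.0162), a call lost with the slide term (0.0633) and without vehicle replicates 1 or 3 or dexamethasone replicates 1 or 2 (0.0508 to 0.0658). Il6r, the ligand-binding receptor, had vehicle levels of -0.12, -2.26 and -0.27, the low one in the dim patch, and dexamethasone levels of 1.82, 2.30 and 2.10. It rose by 2.96 (adjusted p = 0.0316) and by 2.27 with the patch left out (0.00349). The call was lost with the slide term (0.191), with replicate number as a block (0.0527) and when any single array other than vehicle replicate 2 was left out (0.0541 to 0.111). After a slide term was added, the list had 0 rises and 1 fall, and with any single array other than vehicle replicate 2 left out 1 to 3 calls.

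NF-kB factors and their feedback genes had 4 rises and 5 falls among 20 measured, with a median of -0.27. Nfkbia, which codes for the inhibitor that holds NF-kB in the cytoplasm, had vehicle levels of 3.36, 3.53 and 3.27 and dexamethasone levels of 4.69, 4.55 and 4.26, a 2.16-fold rise (adjusted p = 0.0113, and 0.057 without dexamethasone replicate 2). Birc2, a ubiquitin ligase of the TNF receptor complex, went from -0.27, -0.00 and -0.39 to 1.80, 1.55 and 1.59, a 3.65-fold rise (adjusted p = 0.00272). Nfkbie, another inhibitor of the family, went from 1.35, 1.24 and 1.20 to 0.12, -0.04 and 0.12, a 2.29-fold fall (adjusted p = 0.0035). The 2 inhibitors of NF-kB therefore lay on opposite sides. Zfp36, an RNA-binding protein that destroys cytokine messages, rose by 1.32 and was lost with replicate number as a block (adjusted p = 0.0606). Nfkb1, a subunit of the factor itself, fell by 0.62 (adjusted p = 0.0285), was lost with the slide term (0.121) and when any single array other than vehicle replicate 2 was left out (0.0741 to 0.101), and its other probe gave 0.35. Fitted with the slide term, 2 rose and 1 fell, and with any single array other than vehicle replicate 2 left out 1 or 2 rose and 1 or 2 fell.

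Inducible inflammatory enzymes and adhesion genes had 0 rises and 9 falls among 31 measured, with a median of -0.35. Ptgs2, the inducible cyclooxygenase that makes prostaglandins, had vehicle levels of -3.59, -4.22 and -4.47 and was not well above background on any dexamethasone array. It fell at least 6.07-fold (adjusted p = 0.00179). Has2, a hyaluronan synthase, had vehicle levels of -4.17, -4.14 and -4.61, was likewise not above background with dexamethasone, and fell at least 5.24-fold (adjusted p = 0.00156). Csf2, the growth factor GM-CSF, went from -3.41, -3.34 and -2.92 to -6.26, -5.58 and -6.02, a 6.64-fold fall (adjusted p = 0.00316), also with 2 of 3 dexamethasone arrays above background. Vcam1 and Icam1, adhesion molecules for leukocytes, had differences of -1.38 and -0.62. In the slide-term fit 4 fell. Without vehicle replicate 1 or dexamethasone replicates 1, 2 or 3 the list had 4, 3, 4 and 4 falls, and with replicate number as a block 3 rises and 13 falls. Of 31 measured interferon response genes 0 rose and 3 fell, with a median of -0.18. These were Irf1, Nos2 and Rsad2, with differences of -0.87, -0.87 and -1.90. Irf1 and Rsad2 were lost with the slide term (adjusted p = 0.12 and 0.128), the list had no calls without dexamethasone replicates 1, 2 or 3 and 1 fall without vehicle replicate 1, and it had 7 falls with replicate number as a block.

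Promoters of these genes were searched for 3 motifs, on both strands, in windows of 250 bases before to 50 after the start site from RefSeq on the GRCr8 build. A motif match is a description of the letters only. The NF-kB decamer, spelled GGGA, any 2 bases, then TTCC, was found in 1.29% of all 27457 promoters and in 1.39% of those of the 10737 tested genes with a promoter. It was found in 12 of 681 promoters of genes that rose (1.76%), in 15 of 448 of genes that fell (3.35%), and in 4 of 23 of genes that fell more than 4-fold (17.4%). These 4 were Ccl7, Cxcl6, Cxcl10 and Il6. The decamer also occurred before genes that rose, including Nfkbia and Nfkbiz. The 250 bases before the start are printed for the 4 falls and for Nfkbia, 5′ to 3′ along the gene's strand, with matches to the decamer in capitals, since they show the same letters before genes that moved in opposite directions.
Ccl7, chr10:67513845-67514094, plus strand: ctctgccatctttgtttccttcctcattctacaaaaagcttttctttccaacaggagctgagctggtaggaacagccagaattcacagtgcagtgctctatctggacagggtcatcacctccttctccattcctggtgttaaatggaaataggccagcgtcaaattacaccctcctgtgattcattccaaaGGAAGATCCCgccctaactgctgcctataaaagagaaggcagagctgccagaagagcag
Cxcl6, chr14:17596418-17596667, minus strand: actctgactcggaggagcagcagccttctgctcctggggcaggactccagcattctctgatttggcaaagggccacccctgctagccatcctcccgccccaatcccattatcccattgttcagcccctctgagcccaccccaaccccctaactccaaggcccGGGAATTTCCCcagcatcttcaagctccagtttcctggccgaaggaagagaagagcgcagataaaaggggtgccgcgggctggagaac
Cxcl10, chr14:15988816-15989065, plus strand: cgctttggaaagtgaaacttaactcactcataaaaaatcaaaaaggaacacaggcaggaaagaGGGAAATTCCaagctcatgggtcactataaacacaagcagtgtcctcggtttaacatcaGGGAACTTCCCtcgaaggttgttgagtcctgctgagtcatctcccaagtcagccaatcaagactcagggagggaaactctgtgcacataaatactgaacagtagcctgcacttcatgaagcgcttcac
Il6, chr4:5894576-5894825, minus strand: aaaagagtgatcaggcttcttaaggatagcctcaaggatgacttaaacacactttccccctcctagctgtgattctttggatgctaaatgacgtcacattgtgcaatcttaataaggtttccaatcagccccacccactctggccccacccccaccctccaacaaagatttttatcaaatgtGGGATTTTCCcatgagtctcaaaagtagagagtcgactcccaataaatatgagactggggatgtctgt
Nfkbia, chr6:78597073-78597322, minus strand: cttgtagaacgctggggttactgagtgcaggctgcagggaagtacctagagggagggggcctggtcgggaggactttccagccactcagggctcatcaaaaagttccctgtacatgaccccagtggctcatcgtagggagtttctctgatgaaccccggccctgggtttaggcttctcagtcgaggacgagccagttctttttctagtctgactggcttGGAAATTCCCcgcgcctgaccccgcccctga
The first base of the match lies at -59 from the start site in Ccl7, at -88 in Cxcl6, at -187 and -128 in Cxcl10, at -68 in Il6 and at -31 in Nfkbia. The runs of 11 capitals in Cxcl6 and Cxcl10 are 2 overlapping matches each.

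The glucocorticoid receptor palindrome, spelled GNACA, any 3 bases, then TGTNC, was found in 0.307% of the promoters of tested genes, in 4 of 681 of genes that rose (0.587%) and in 1 of 448 of genes that fell (0.223%). The 4 were Gnmt, Map3k6, Ncr3 and Fam107a, so most of the rises named above had no match to these letters in this window. Fam107a, a stress-induced actin-binding protein, is shown with its match in capitals because it had the largest difference among those of the 4 whose match lies before the start.
Fam107a, chr15:19046331-19046580, plus strand: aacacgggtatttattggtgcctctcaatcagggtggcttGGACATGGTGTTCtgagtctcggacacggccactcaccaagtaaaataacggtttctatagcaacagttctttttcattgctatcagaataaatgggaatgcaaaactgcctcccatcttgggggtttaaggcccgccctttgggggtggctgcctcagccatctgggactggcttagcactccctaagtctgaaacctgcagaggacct
Its vehicle levels were -5.49, -7.47 and -6.36, with 2 of 3 arrays above background, and its dexamethasone levels -3.21, -4.28 and -3.98. The groups did not overlap, and the rise was 2.62 ± 0.54 SE (adjusted p = 0.0366, and 0.175 with the slide term). The AP-1 heptamer TGANTCA was found in 5.38% of promoters of tested genes, 5.29% of those that rose and 5.58% of those that fell. Among genes that moved more than 4-fold it was in 2 of 72 that rose (2.78%) and 3 of 23 that fell (13%), the palindrome was in 2 of 72 that rose (2.78%) and 0 of 23 that fell, and the decamer in 1 of 72 that rose (1.39%).

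Growth factor and MAPK feedback genes had 5 rises and 10 falls among 28 measured, with a median of -0.45. Dusp16, a JNK phosphatase, went from -0.92, -0.91 and -0.83 to -1.66, -1.60 and -1.62, a 1.67-fold fall (adjusted p = 0.00886). Dusp9 fell 2.39-fold and the ligand Areg, amphiregulin, 2.35-fold (adjusted p = 0.0113 and 0.0165), and Hbegf, another ligand of the EGF receptor, had a difference of -1.36. Egfr, the receptor itself, rose 1.96-fold and Errfi1, an inhibitor of that receptor, 2.10-fold (adjusted p = 0.00925 and 0.0103), so Egfr and Areg moved in opposite directions. Dusp9, Egfr and Errfi1 were lost without dexamethasone replicate 2 (0.0564, 0.0509 and 0.0538), Areg also without vehicle replicate 1 or dexamethasone replicates 1 or 3 (0.0556 to 0.0671), and Egfr and Errfi1 with the slide term (0.0547 and 0.0654). Without vehicle replicate 1 or dexamethasone replicates 1, 2 or 3 the list had 6, 5, 1 and 7 calls, and with the slide term 2 rises and 6 falls. Among 25 measured immediate early factors 0 rose and 3 fell, with a median of -0.21. Fosl1, an AP-1 subunit, went from -0.04, 0.23 and 0.46 to -1.44, -0.98 and -0.99, a 2.56-fold fall (adjusted p = 0.0135, and 0.0509 without dexamethasone replicate 2). Nr4a3, an orphan nuclear receptor, fell 2.42-fold (adjusted p = 0.00579) and Atf3, a stress factor, 1.94-fold (0.0162, and 0.059 to 0.0611 when any 1 dexamethasone array was left out). Fos, Egr1 and Jun had differences of 0.19, -0.07 and -0.35 and did not pass. This list had 1 fall without dexamethasone replicate 2, 3 falls with the slide term, and 2 rises and 5 falls with replicate number as a block.

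The insulin and IGF axis had 4 rises and 3 falls among 27 measured genes, with a median of -0.04. Igfbp1, a binding protein that limits IGF action in fasting, went from 3.26, 4.33 and 3.46 to 7.24, 7.39 and 7.11 (11.8-fold, adjusted p = 0.00312). Irs2, the adaptor of the liver insulin receptor, went from 0.29, 0.37 and 0.20 to 1.63, 1.53 and 1.51 (2.41-fold, adjusted p = 0.00296). Inhbe, a hepatocyte activin subunit, went from -2.75, -2.81 and -2.82 to -4.09, -4.08 and -4.00, a 2.40-fold fall (adjusted p = 0.00242). With any single array other than vehicle replicate 2 left out the list had 3 or 4 calls, and with the slide term 2 rises and 1 fall. Apoptosis and survival genes had 6 rises and 2 falls among 31 measured, 1 to 5 calls with any 1 array left out, and 2 rises with the slide term. Bnip3, an inducer of mitochondrial clearance, rose 1.79-fold and Bcl2l1, a survival factor, 1.77-fold (adjusted p = 0.00946 and 0.0122). The 4 probes of Bcl2l1 gave differences from 0.82 to 3.70, and the call was lost without vehicle replicate 1 or any 1 dexamethasone array (0.0501 to 0.0558). Of 36 measured cell cycle and replication genes 1 rose and 3 fell with a median of -0.20. None passed with the slide term or when any single array other than vehicle replicate 2 was left out, and with replicate number as a block 1 rose and 10 fell.

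ER stress and amino acid starvation genes had 3 rises and 2 falls among 31 measured, and Edem1, which directs misfolded proteins to degradation, went from 5.06, 5.36 and 5.22 to 7.10, 7.31 and 7.26 (4.02-fold, adjusted p = 0.00175). Ern1, the sensor IRE1, rose by 0.56 (adjusted p = 0.0455), was lost with replicate number as a block (0.0524) and when any single array other than vehicle replicate 2 was left out (0.0812 to 0.131), and the list then had 1 or 2 calls. The slide term gave 2 rises and 1 fall. NRF2 and oxidative defence genes had 1 rise and 2 falls among 25 measured, 1 of each with the slide term, and 1 rise and 4 falls with replicate number as a block. Osgin1, a growth inhibitor induced by oxidative stress, went from 3.65, 3.91 and 3.80 to 2.11, 2.28 and 2.35, a 2.91-fold fall (adjusted p = 0.00289). Gpx3, the secreted glutathione peroxidase, rose 3.01-fold (adjusted p = 0.0142, and 0.063 without dexamethasone replicate 2). Iron genes had 2 rises and 1 fall among 24 measured, Hamp among the rises, and 1 rise with the slide term. Of 20 measured clock genes 2 rose, Per1 and Rora, neither with the slide term (0.0938 and 0.141), and neither was called without vehicle replicate 3 or dexamethasone replicate 3. Replicate number as a block gave 2 rises and 2 falls. Of 37 complement and coagulation genes 3 rose and 1 fell, F11, a clotting factor, rising 4.73-fold (adjusted p = 0.00801) and Tfpi2, a protease inhibitor, falling at least 1.95-fold (adjusted p = 0.00872, and 0.0536 with the slide term). That list had 2 rises with the slide term and 1 rise and 1 fall without vehicle replicate 1 or any 1 dexamethasone array. Over all genes tested 6.41% rose and 3.89% fell, and the counts of the lists in this paragraph lay near those shares.

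Junction genes had 3 rises and 1 fall among 27 measured, 1 rise with the slide term, and 3 rises and 4 falls with replicate number as a block. Cldn1, a tight junction protein of the bile canaliculus, went from -2.82, -2.21 and -2.26 to 0.73, 0.35 and 0.69 (8.13-fold, adjusted p = 0.00224). Cldn3, another claudin, rose 2.15-fold (adjusted p = 0.00762). Gja1, a gap junction connexin, went from -1.01, -0.70 and -0.99 to -2.48, -2.27 and -2.05, a 2.58-fold fall (adjusted p = 0.00778). Cldn3 and Gja1 did not pass with the slide term (0.0501 and 0.052). Cldn4 had a difference of 0.71 (adjusted p = 0.0408), but its 2 probes gave 0.71 and -1.51, so its direction is uncertain, and it was lost with replicate number as a block (0.0743). Matrix and TGF beta genes had 1 rise and 7 falls among 38 measured, with a median of -0.35. The rise was Chrdl1, an antagonist of BMP signalling, which was not above background on any vehicle array and had dexamethasone levels of -2.73, -4.31 and -3.53, at least 11.6-fold higher (adjusted p = 0.00573). Col4a2, a basement membrane collagen, had a difference of -1.01 (adjusted p = 0.0143, and 0.0564 to 0.0643 without vehicle replicate 1 or dexamethasone replicates 2 or 3) and Smad3, a TGF beta signal carrier above background on 1 of 3 dexamethasone arrays, -2.51. Col1a1, a fibrillar collagen, had vehicle levels of 1.95, 1.63 and 0.75 and dexamethasone levels of 0.39, 0.48 and -0.78, with replicate 3 lowest in both groups. Its difference of -1.41 did not pass (adjusted p = 0.106) but did with replicate number as a block (0.0165), as did 13 falls and 3 rises of the list. Once slide was a term, 1 rose and 2 fell, and with 1 array left out 1 rose and 1 to 5 fell.

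Markers of hepatocytes and of other liver cells were read on the same arrays. Hepatocyte markers had 3 rises and 0 falls among 16 measured, 2 rises with the slide term and 1 without dexamethasone replicate 2. Their summed level, as a multiple of each array's 75th percentile, was 1500 to 1850 with vehicle and 1810 to 2080 with dexamethasone. Of 17 Kupffer cell and macrophage markers none was called, the median difference was -0.02 and the summed level was 63.6 to 126 with vehicle and 74.5 to 153 with dexamethasone. All 17 were above background on at least 1 array. Lyz2, the macrophage lysozyme, had vehicle levels of 3.65, 4.03 and 3.61 and dexamethasone levels of 4.04, 4.55 and 4.05, with no overlap, and did not pass (0.45, adjusted p = 0.207), but did with replicate number as a block (0.042). With replicate number as a block 4 of the 17 were called, all rising. The cytokines and chemokines above can come from macrophages as well as hepatocytes, and the part of these cells in their falls was not tested. Of 9 measured lymphocyte and neutrophil markers none was called, or 2 without vehicle replicate 2 and 1 rise and 1 fall with replicate number as a block, and Cd2 and Ms4a1 were not above background on any female array.

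Stellate cell and fibroblast markers had 0 rises and 1 fall among 11 measured, with a median of -0.70, or -0.24 against vehicle replicate 3 on the same slide. Their summed level was 140 to 170 with vehicle and 117 to 142 with dexamethasone, while Lum, Ngfr and Gfap were not above background on any female array. The fall was Pdgfrb (-1.13, adjusted p = 0.0447), lost with the slide term (0.256), with replicate number as a block (0.0747) and when any single array other than vehicle replicate 3 was left out (0.0724 to 0.134). With replicate number as a block 1 marker rose and 3 fell. These values lie beside the falls of the matrix list, and their part in them was not tested. Endothelial markers had 3 rises and 0 falls among 11 measured, with summed levels of 1.82 to 3.47 and 2.51 to 3.98. Their differences ran from -1.02 to 2.90 around a median of 0.39, and replicate number as a block gave 2 rises and 1 fall. Lyve1, a hyaluronan receptor of sinusoidal endothelium, rose by 2.90 (adjusted p = 0.0291), Vwf by 1.75 (0.013) and Flt1 by 0.96 (0.0355), while Tek was not above background on any array. Lyve1 was lost with replicate number as a block and without vehicle replicates 1 or 3 or dexamethasone replicates 2 or 3 (0.0562 to 0.102). Flt1 was lost without vehicle replicate 1 or any 1 dexamethasone array (0.0936 to 0.121). It was also lost with array median or quantile scaling and with normexp background correction. Without dexamethasone replicate 2 none of the 3 was called. The slide term left 2 rises. Cholangiocyte markers had 2 rises and 2 falls among 10 measured, with summed levels of 15.2 to 28.5 and 13.1 to 18.3. The rises were Prom1 and Cldn4, and the direction of Cldn4 is uncertain because its 2 probes disagree in sign, as given above. Prom1 rose 4.26-fold (adjusted p = 0.00381), whereas Sox9 and Krt19 had differences of -1.44 and -1.85 (adjusted p = 0.024 and 0.0251), both lost with the slide term (0.131 and 0.148), which left 1 rise in the list. Krt19 was above background on 2 of 3 dexamethasone arrays and was also lost with replicate number as a block (0.057) and without vehicle replicate 1 or dexamethasone replicates 1 or 2 (0.0774 to 0.0947), and Sox9 without vehicle replicates 1 or 3 or dexamethasone replicate 1 (0.0606 to 0.0832).

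Some large changes lay outside the lists. Depp1, a gene that FOXO factors are known to raise in fasting, went from 3.26, 4.07 and 3.42 to 7.35, 7.24 and 7.07 (12.4-fold, adjusted p = 0.00179). Doc2a, a calcium sensor of vesicle release best known from neurons, went from -4.08, -3.90 and -3.79 to -0.09, -0.19 and -0.59 (12.4-fold, adjusted p = 0.000855). Adgrg2, an adhesion G protein-coupled receptor, went from -2.07, -2.0 and -2.34 to 1.76, 1.19 and 1.10 (11.2-fold, adjusted p = 0.0017). In all 3 the groups lay more than 2 log2 units apart. Gucy2c, a guanylate cyclase receptor best known from the intestine, had vehicle levels of -4.74, -3.84 and -2.78 and dexamethasone levels of -1.27, 0.03 and 0.30, with replicate 1 lowest in both groups. Its 11.1-fold rise (adjusted p = 0.0242) was lost with the slide term (0.133) and without vehicle replicate 1 or dexamethasone replicates 2 or 3 (0.0637 to 0.0919). Xcl1, a chemokine of T and natural killer cells, went from -2.17, -0.91 and -1.09 to -4.53, -3.02 and -3.34, a 4.71-fold fall (adjusted p = 0.0444) that was lost with the slide term (0.142) and when any 1 of the 6 arrays was left out (0.0569 to 0.115). The large falls that are neither Il1b nor chemokines were Cd83, Tnfrsf14, Ch25h and Rgs4. Ch25h makes 25-hydroxycholesterol, an oxysterol of immune cells, and went from 1.27, 1.99 and 2.19 to -0.85, -0.28 and -0.18, a 4.76-fold fall (adjusted p = 0.0112). Tnfrsf14, a TNF receptor of lymphocyte signalling, fell 5.06-fold (adjusted p = 0.0035). Cd83, a marker of mature dendritic cells, went from 0.79, 1.92 and 1.66 to -2.30, -1.26 and -1.17, an 8.18-fold fall (adjusted p = 0.0125, and 0.0586 with the slide term). Rgs4, a regulator of G protein signalling, had a difference of -2.52 (adjusted p = 0.0243), its other probe gave -0.95, and it was lost with replicate number as a block (0.0525), with the slide term (0.148) and without vehicle replicate 1 or dexamethasone replicates 1 or 2 (0.0532 to 0.0896).

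The number of calls among liver genes known to differ between the sexes depended on the fit. Without a block 10.3% of all genes were called. Of 16 measured male-biased genes 2 rose and 0 fell, and of 18 measured female-biased genes 2 rose and 1 fell. With the slide term the counts were 2 rises for the male-biased and 1 rise for the female-biased genes. With replicate number as a block 4 male-biased genes rose and 2 fell, and 6 female-biased genes rose and 3 fell, against 14.3% of all genes called. Among the rises of female-biased genes was Fmo1, a flavin monooxygenase, which rose 1.90-fold (adjusted p = 0.0166, and 0.0509 with the slide term) and was lost without vehicle replicate 1 or dexamethasone replicates 1 or 2 (0.0588 to 0.0612). Cyp2a2, a male-biased cytochrome, went from -5.26, -5.25 and -5.42 to -4.23, -4.09 and -4.15 (2.23-fold, adjusted p = 0.00385). Its probe may also read other members of the Cyp2a family. Of 16 measured genes of growth hormone signalling 1 rose and 1 fell, or 2 each way with replicate number as a block. These were Socs1, an inhibitor of cytokine receptors, and Igfals, the acid-labile subunit that carries IGF in blood, with differences of 0.88 and -0.78 (adjusted p = 0.0312 and 0.0144). Neither passed with the slide term (0.119 and 0.0815), Socs1 did not pass without vehicle replicates 1 or 3 or dexamethasone replicates 2 or 3 (0.0836 to 0.109), and Igfals did not pass when any 1 dexamethasone array was left out (0.0552 to 0.0584).

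The comparison against vehicle replicate 3 alone, on the slide that holds all 3 dexamethasone arrays, gave the same sign for all 2718 called genes. This is no independent check, since that array is part of both differences. The median ratio of the same-slide difference to the full difference was 1.04. Il1b had -4.71 on the same slide against -5.09 in full, Tdo2 3.62 against 3.90, and Fkbp5 2.99 against 2.84.

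**Figure D4:**
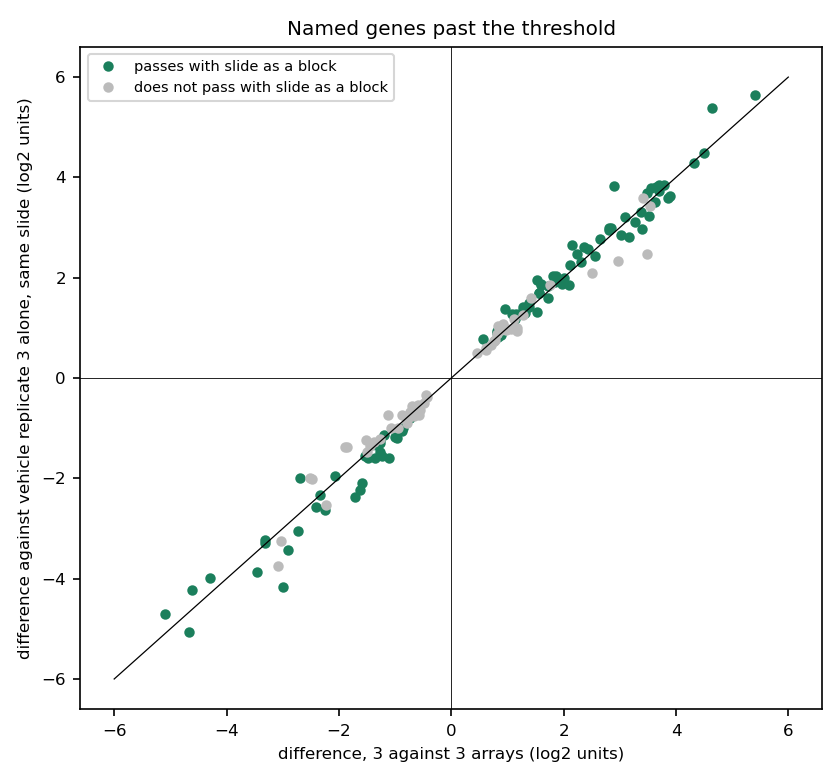
Named genes that passed the test, with the full difference (3 against 3 arrays, log2 units) on the horizontal axis and the difference of the 3 dexamethasone arrays against vehicle replicate 3 of the same slide on the vertical axis. Points lie along the diagonal line of equality, with the same sign in all of them.

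Some genes were seen in 1 group only. Of the rises 80 were not above background on any vehicle array, and of the falls 78 were not above background on any dexamethasone array. Such genes, here and above, passed the filter only through the group where they were above background. The filter thereby largely set the direction of their difference, so their counts and p-values are no separate support for it. The share of all tested genes in this state was not counted. Tekt5l1, similar to a tektin of cilia, had dexamethasone levels of -3.52, -3.22 and -3.74 and was at least 11.8-fold higher than with vehicle (adjusted p = 0.00129). Chp2, a calcineurin-like calcium-binding protein, was at least 4.87-fold higher (adjusted p = 0.00438). Adamtsl2, a secreted matrix protein that binds latent TGF beta complexes, had dexamethasone levels of -4.18, -4.05 and -3.73 and was at least 8.22-fold higher (adjusted p = 0.000855). These rises passed with the slide term as well (0.0199, 0.0329 and 0.018).

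The response in female cells was set against that in male cells through the difference between the 2 responses, tested on all 12 arrays. Of 26522 genes 28 passed (0.106%), 20 with the higher response in females and 8 with the lower. The count was 2 with the slide term, neither of them among the 28, and 0 with replicate number as a block, where 4380 genes had an unadjusted p under 0.05. It ranged from 0 to 578 with 1 array left out, being 0 without female vehicle replicates 1 or 3 or any 1 female dexamethasone array. Most of the 28 genes were not above background on all 12 arrays. Many of the 20, Adamtsl2 among them, had all 3 arrays above background only in the female dexamethasone group. They passed the filter through that group alone, which largely set their direction. The split of 20 and 8 is therefore no separate support for a higher response in females. On the 3 male vehicle arrays 45.7% to 55.6% of the probes were above background, fewer than on any female array, and all 3 lay on the slide that held only male arrays. Male dexamethasone replicate 1 lay there too, while replicates 2 and 3 shared a slide with female vehicle replicates 1 and 2. Slide can therefore not be fully told apart from sex or from treatment in males. The median coefficient of variation among repeated spots of a probe was 17.8% to 20.3% on male vehicle arrays. On the female arrays it was 4.66% to 7.20%. Of the genes called in females, 76.4% of the rises and 87.9% of the falls had the same sign in males, against 63.8% of all genes tested, as did 148 of 166 rises and 49 of 49 falls over 4-fold, signals near background in males included. Fkbp5 had a male difference of 2.93, Slc25a47 4.19, Tat 2.82, Il1b -4.87 and Ccl7 -3.60. A2m had 2.65 in females and 5.41 in males, a difference that did not pass (adjusted p = 0.59). Ptpn1, a phosphatase that acts on the insulin receptor, had -0.59 in females and 0.71 in males (difference -1.30, adjusted p = 0.0839).

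**Figure D5:**
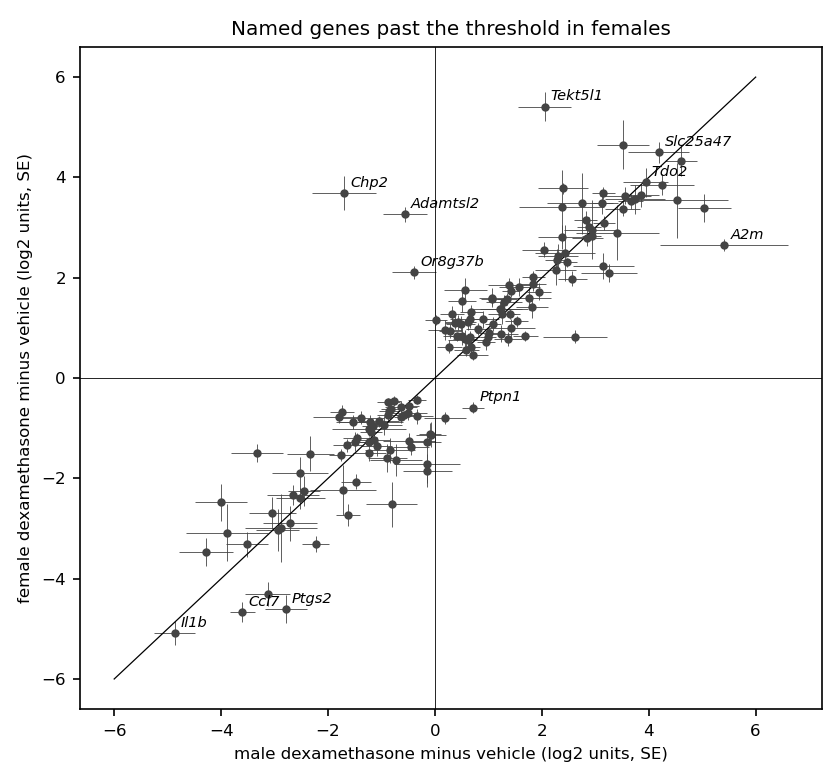
Named genes that passed the test in females, with the male difference on the horizontal and the female difference on the vertical axis (log2 units, dexamethasone minus vehicle; bars are standard errors, 3 arrays a group). Of 153 such genes 148 have the same sign in both sexes, and where a gene was not above background in males, as Adamtsl2 with vehicle, the sign of its male difference cannot be read.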

How the data were processed

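RNA of 12 hepatocyte cultures was hybridised to 1-colour Agilent rat arrays, and the 6 female samples were analysed here. Per the file headers, the deposited intensities are background-subtracted, detrended signals from Agilent Feature Extraction 9.5.3.1 (9.5 in the submitters' processing notes) with probe coordinates on rn3. The values of the deposited series table were equal to these processed signals. Scaling between arrays by the authors is not given in the sources used here.

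From the intensities, log2 values minus each array's 75th percentile were computed. Control spots and outlier flags were left out, spots of 1 probe were averaged, probes had to be above background on every array of at least 1 group, and the probe with the highest mean stood for a gene. Of 41012 probes 21100 were named through RefSeq (GRCr8), 19912 kept the file's name, and 209 matches on another chromosome were refused. The test was limma's (version 3.58.1, R 4.3.3; lmFit, eBayes, Benjamini-Hochberg adjusted p under 0.05), with 3 arrays a group, and the script was tested on simulated data. The difference between female and male responses was an interaction term on 12 arrays. Figures used matplotlib 3.10.9. The small number of arrays limits the precision.

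Arrays of the same replicate number deviated together (correlations of 0.41, 0.25 and 0.33; other pairs -0.26 to -0.07), so by this check the numbers pair the samples, although the labels do not say what they share. The fit reported throughout has no such block. Values with replicate number as a block are given beside a result where they change a call or move a count by more than 1.5 times.

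The samples, the gene lists and the tests were chosen with earlier results of these data known. Among genes with a symbol that passed and whose groups did not overlap, the text names the 15 largest rises and falls among those above background on all 6 arrays, the 6 largest each way by bound, up to 3 rises and 3 falls a list by adjusted p, and other list members with their values. Alternatives were another scaling (array median, quantile), normexp background correction with an offset of 50, other filters on dim probes, slide or replicate number as a block, 12 arrays in 1 fit, trend and robust variance, the mean of a gene's probes and each array left out. Setting the dim patch to missing was chosen after seeing the data. Some genes that the naming rule or the lists hold are not reported here by name.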

Additional observations from a re-analysis of the deposited data

Results flagged for a closer look

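Zfp474, Prok1, Vrk2 and Adamtsl2 are listed because the test of the difference between the female and male responses passed, as for 28 of 26522 genes in all. Slide cannot be fully told apart from sex or from treatment in males here. Zfp474, a zinc finger gene, had a female difference of 1.26 and a male difference of -0.66, a difference between the responses of 1.92 ± 0.21 SE (limma interaction term, adjusted p = 0.0273). It passed under 9 of 17 alternatives (adjusted p from 0.0029 to 0.103). Prok1, a secreted prokineticin, had 0.91 in females and -0.57 in males, a difference of 1.48 ± 0.22 SE (adjusted p = 0.0483), and passed under 5 of 17 (0.0135 to 0.176). Vrk2, a protein kinase, had -0.25 in females and 1.31 in males, a difference of -1.57 ± 0.21 SE (adjusted p = 0.0395), and passed under 6 of 17 (0.00731 to 0.149). Adamtsl2 had 3.27 in females and -0.56 in males, a difference of 3.83 ± 0.59 SE (adjusted p = 0.0491), and passed under 4 of 17 (0.0131 to 0.461). Above-background signals for Adamtsl2 came from all 3 female dexamethasone arrays, 1 of 3 male dexamethasone arrays and 0 of the vehicle arrays of either sex. Its male difference is therefore one between signals mostly below background, and neither its sign nor the test shows a difference between the sexes for this gene. None of the 4 changed sign under the 17 alternatives, and none passed with replicate number as a block.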

How the results depend on the processing

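Rises outnumbered falls in the female response under every alternative run, but the count depended on the fit. Against 2718 calls, normexp background correction gave 1765, no filter on dim probes 1724, slide as a block 1314 on 6 arrays and 311 on 12, only the slide with both groups 1409, and 4 group means on 12 arrays 1123. Leaving out 1 array gave 666 to 2847. Array median, quantile, a filter on all 6 arrays, replicate block (3775), trend and robust variance, the mean of probes and the dim patch left out (3025) stayed within 1.5 times. Replicate number as a block kept 2376 of the calls with the same sign. The sex difference, 28 calls, had 4 with the array median, 293 after quantile normalization (257 of them lower in females), 2 with slide as a block, 0 with replicate number as a block, 47 with the dim patch left out, and 0 to 578 with 1 array left out. In limma 4380 genes had an unadjusted p under 0.05 with replicate number as a block, and 2458 to 2649 in the 5 omissions that left 0 calls. The cause was not tested. Of 153 named calls 27 passed in every one of 19 alternatives and 7 more in the 18 run for them (they are not above background on all 6 arrays), 77 with any array left out and 145 with replicate number as a block. Cldn4 turned to -0.40 (adjusted p = 0.141) with the mean of its 2 probes, which disagree in sign. Signal near background limits the genes given as bounds.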

Other observations

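Some genes with large differences did not pass and had levels that moved with the replicate number. Akr1c1, an aldo-keto reductase, had vehicle levels of -3.77, -3.93 and -7.81 and dexamethasone levels of 0.53, 0.02 and -2.06. Replicate 3 was lowest in both groups, the difference was 4.67 ± 1.26 SE (limma, adjusted p = 0.0717), and with replicate number as a block the adjusted p was 0.0168. Akr1c2 had vehicle levels of -3.21, -2.58 and -7.38 and dexamethasone levels of 1.01, 1.29 and -5.41, with the same replicate lowest. Its difference of 3.35 had an adjusted p of 0.39, or 0.035 with replicate number as a block. The members of this family are similar in sequence, and a probe may read more than 1. On vehicle replicate 3 both Akr1c1 and Akr1c2 lay below -7.10. That was the level there of Adamtsl2, which was not above background on any vehicle array, so these low levels may lie near background. Ccl20, a chemokine, had vehicle levels of -1.80, -0.86 and -1.59 and dexamethasone levels of -4.82, -3.09 and -2.96, with replicate 1 low in both groups, and a difference of -2.21 (adjusted p = 0.0582, or 0.037 with replicate number as a block).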
